A study of Mus musculus with 12 samples.

Results

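The 36 genes described here encode the machinery of mitosis: the kinase CDK1 with its cyclins and activating phosphatases, the Polo, Aurora and NEK kinases, kinetochore and checkpoint proteins, regulators of the anaphase-promoting complex, spindle motors and the proteins that divide the cell. They were taken by name from a list drawn up with earlier results of these data known, and found on the arrays through the accession of each non-control probe. A total of 57 probes matched, and all 36 genes had at least 1 probe well above background on all 12 arrays, among 26836 genes tested. Each gene is given by its brightest probe, and the other probes are set beside it where they differ; 18 genes had several.

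In dividing cells the mRNAs of these genes build up through S and G2 phase, peak around mitosis and are low in G1. CDK1 bound to cyclin B starts mitosis, the spindle assembly checkpoint holds it until every chromosome is attached, and the anaphase-promoting complex then sends securin and cyclin B to the proteasome for destruction. The transcription of many of these genes is held down in resting cells by the DREAM complex and raised by B-Myb and FOXM1. These act through CHR elements near the start site, whereas CCAAT elements there are bound by another factor, NF-Y. Embryonic stem cells divide rapidly with short gap phases. MG132 blocks the proteasome, the protease on which exit from mitosis depends.

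Mouse embryonic stem cells were grown in medium with leukaemia inhibitory factor and 250 nM PD173074, which blocks the receptors for fibroblast growth factor and was present in all 4 groups. Total RNA was hybridised to 12 one-colour arrays, 3 per group: cells given 1 µM MG132 for 30 min and then MG132 with 250 nM 4OHT for 6 h, cells given 4OHT alone for 6 h, cells given MG132 alone for the same 30 min and 6 h, and untreated cells, whose titles say 0 h. 4OHT, or 4-hydroxytamoxifen, commonly serves to activate a protein joined to an altered oestrogen receptor, and the labels name no such protein. No untreated array at 6 h was among those analysed here, so time and compound cannot be told apart in the comparisons with untreated cells.

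Values are processed spot intensities divided by the 75th percentile of their array, which lay between 309 and 485 intensity units, and are called scaled intensities; intensities of different probes are not compared. A change is a log2 ratio of groups with its standard error (SE), and a gene is said to have risen or fallen where limma gave a Benjamini-Hochberg adjusted p under 0.05 over all genes. Of the arrays, 8 lay on slide 1 (all untreated, all 4OHT and 2 MG132 arrays) and 4 on slide 2 (all with both compounds and MG132 replicate 3), so that slide and group cannot be told apart for both compounds except through that 1 MG132 array. All 15 markers of embryonic stem cells were above background on every array, and their summed scaled intensity was 536 to 608 on arrays with both compounds, 901 to 963 on 4OHT arrays, 580 to 597 on MG132 arrays and 1008 to 1058 on untreated arrays. Of 14 fibroblast or feeder markers, 7 to 12 were above background on an array, Lum was above background on none, and their sum was 110 to 122 on arrays with both compounds, 131 to 166 on 4OHT arrays, 92.3 to 96.3 on MG132 arrays and 89.2 to 114 on untreated arrays. The part of either marker set in the results was not tested.

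Most of the mitotic genes were lower in MG132-treated cells. Against untreated cells, 20 of the 36 fell, 1 rose and 15 did not pass the test, while of all genes tested 43.1% were called, 24.1% as risen and 19.0% as fallen. The median change of the 36 genes was -0.29, against 0.07 over all genes and -0.14 over the 5540 genes that were about as bright, of which 51.5% were called. The 3 arrays of MG132 cells did not overlap with the 3 of untreated cells for 27 of the 36 genes, as for 59.5% of all genes. In bulk RNA, fewer cells in mitosis and less mitotic mRNA per cell cannot be told apart.

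**Figure D1:**
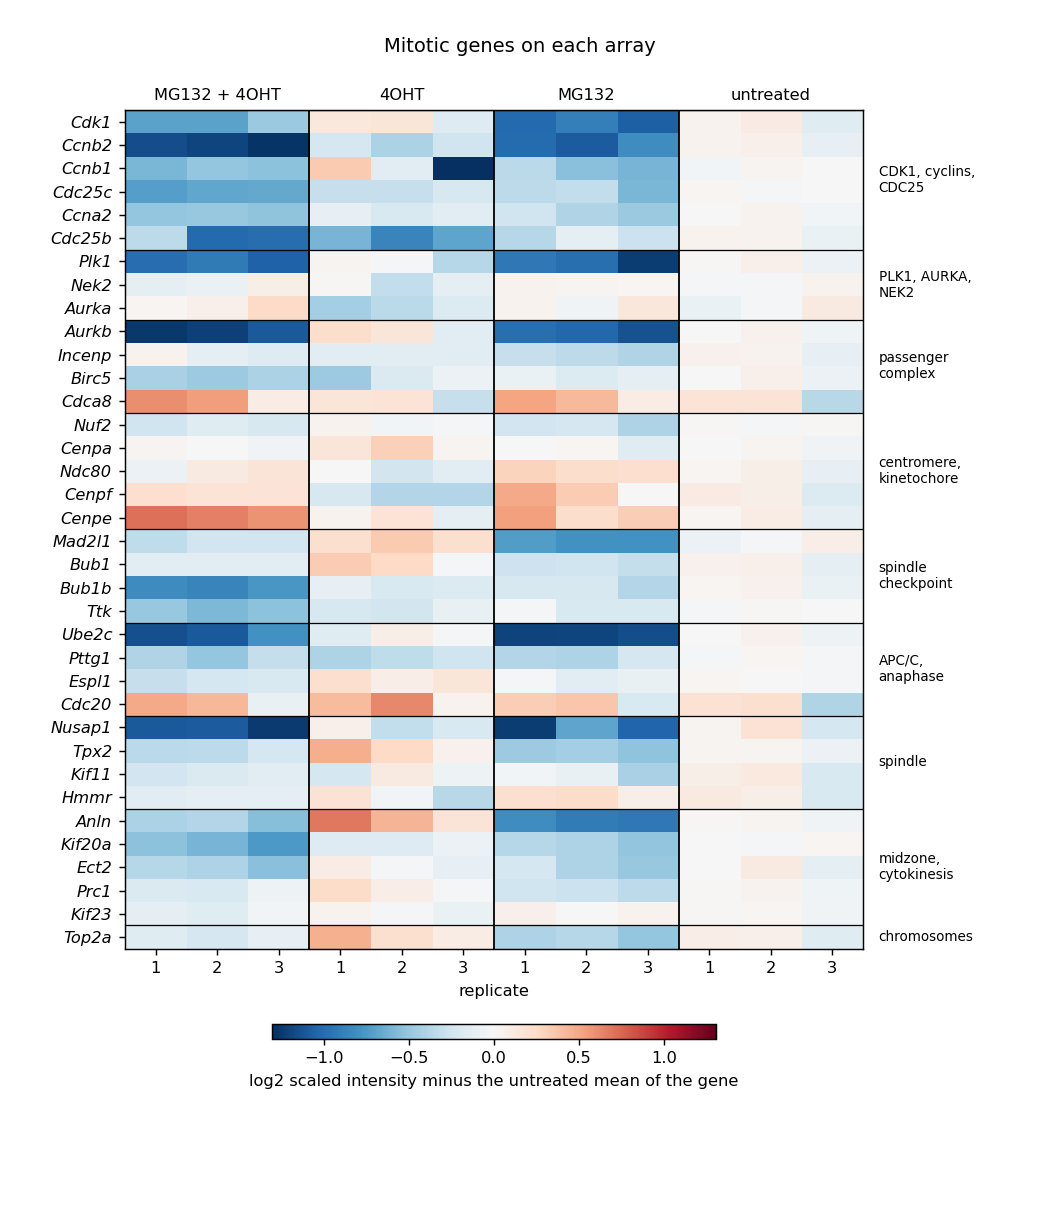
Each cell is the log2 scaled intensity of one gene on one array minus the mean of that gene over the 3 untreated arrays; columns are the arrays by group and replicate, rows are the 36 genes by role, and colours stop at 1.3 in either direction. The MG132 and MG132 + 4OHT columns are blue for most genes, Cenpe is red in both, and the single deep blue Ccnb1 cell under 4OHT is replicate 3.

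Among CDK1, its cyclins and the CDC25 phosphatases that activate it, 4 of 6 fell with MG132 and none rose. Cdk1 itself had scaled intensities of 5.42, 5.88 and 5.24 with MG132, against 11.3, 11.8 and 9.77 in untreated cells, and 6.72, 6.74 and 7.79 with both compounds, against 11.98, 12.2 and 9.74 with 4OHT. Its change was -0.99 ± 0.12 (SE, adjusted p = 0.00012). Ccnb2, a B-type cyclin partner of CDK1, had 17.9, 16.9 and 20.5 with MG132, against 37.0, 37.4 and 33.1 in untreated cells, and fell by 0.96 ± 0.10 on the log2 scale (adjusted p = 4.9e-05). In both genes all MG132 arrays lay below all untreated arrays. Ccna2, the cyclin of S and G2 phase, and Cdc25c fell less, by 0.37 ± 0.08 (adjusted p = 0.0041) and 0.42 ± 0.09 (adjusted p = 0.0038). Cdc25b did not pass the test (-0.25 ± 0.17, adjusted p = 0.26).

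Ccnb1, the main mitotic cyclin, was called in no comparison by its brightest probe, and 1 array accounts for its spread. That probe read 22.7, 19.8 and 19.0 with MG132, against 28.2, 29.7 and 28.9 in untreated cells, and 19.2, 20.4 and 19.9 with both compounds, against 36.5, 26.3 and 7.77 with 4OHT. The value of 7.77 on 4OHT replicate 3 stood far below the other 11, and the SE of every change was 0.44. The change with MG132 was -0.50 (adjusted p = 0.39), and without that array it was -0.50 ± 0.12 (adjusted p = 0.0093). Against 4OHT, both compounds gave a change of 0.02 (adjusted p = 0.97), which without that array was -0.64 ± 0.14 (adjusted p = 0.0043). The other 2 probes of Ccnb1 showed no such array: one read 5.77 and the other 4.21 on 4OHT replicate 3, beside 7.59 and 8.20, and 6.06 and 4.72, on the other 4OHT arrays. Both fell with MG132 against untreated cells, by 0.79 ± 0.13 (adjusted p = 0.00073) and 0.63 ± 0.13 (adjusted p = 0.0025), and both fell with both compounds against 4OHT, by 0.81 ± 0.13 (adjusted p = 0.00052) and 0.73 ± 0.13 (adjusted p = 0.00095).

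Of the kinases that drive entry into mitosis and centrosome separation, Plk1 fell while Aurka and Nek2 did not. Plk1, the Polo-like kinase that acts from mitotic entry to cytokinesis, had 19.0, 18.3 and 15.4 with MG132, against 36.7, 37.8 and 34.3 in untreated cells, a change of -1.05 ± 0.12 (adjusted p = 1e-04). Aurka, the kinase of spindle poles, had 44.7, 41.9 and 48.0 with MG132, against 40.6, 42.4 and 46.7 in untreated cells, and the ranges overlapped (0.05 ± 0.11, adjusted p = 0.72). Nek2, which splits the centrosomes, changed by 0.04 ± 0.10 (adjusted p = 0.80). The 95% interval of the Nek2 change ran from -0.19 to 0.26.

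The 4 subunits of the chromosomal passenger complex, which corrects faulty attachments of chromosomes, differed among themselves. Aurkb, its kinase, had 2.86, 2.78 and 2.57 with MG132, against 5.63, 5.86 and 5.42 in untreated cells, a change of -1.04 ± 0.11 (adjusted p = 4.3e-05). Incenp, its scaffold, fell by 0.34 ± 0.09 (adjusted p = 0.0084). Birc5, which encodes survivin, did not pass the test (-0.13 ± 0.11, adjusted p = 0.35). Cdca8, which encodes borealin, did not either (0.34 ± 0.21, adjusted p = 0.22), and its arrays numbered replicate 3 were lower in every group. In a limma fit with replicate number as a block, Cdca8 rose (0.34 ± 0.07, adjusted p = 0.0051).

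At the anaphase-promoting complex, Ube2c had the largest fall of the 36 genes and Cdc20 did not pass the test. Ube2c, the ubiquitin-conjugating enzyme that works with this complex, had 17.2, 17.4 and 17.9 with MG132, against 40.0, 41.4 and 38.0 in untreated cells, and 18.04, 18.7 and 23.1 with both compounds, against 35.7, 42.1 and 39.3 with 4OHT. Its change with MG132 was -1.19 ± 0.11 (adjusted p = 2.2e-05), and the groups were well apart in both settings. Cdc20, the activator of the complex in mitosis, had 95.9, 98.3 and 66.8 with MG132, against 87.6, 88.5 and 58.3 in untreated cells (0.16 ± 0.24, adjusted p = 0.64). Replicate 3 was the lowest in all 4 groups, on 72.0 with both compounds and 79.2 with 4OHT as well, where replicates 1 and 2 lay between 102 and 119. Tested over the 4 groups, replicate 3 against replicates 1 and 2 gave -0.54 ± 0.06 for Cdc20 (adjusted p = 0.00065), -0.46 ± 0.05 for Cdca8 (adjusted p = 0.00084) and 0.19 ± 0.05 for Aurka (adjusted p = 0.043), where 10.1% of all genes were called. Espl1, the protease separase that cleaves cohesin, did not pass the test with MG132 (-0.09 ± 0.08, adjusted p = 0.39).

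Pttg1, which encodes securin, the inhibitor of separase, gave opposite calls from its pair of probes. The bright probe had 7.89, 7.74 and 8.78 with MG132, against 10.2, 10.4 and 10.1 in untreated cells, and fell by 0.33 ± 0.09 (adjusted p = 0.011). The dim probe had 0.121, 0.158 and 0.149, against 0.0754, 0.0860 and 0.0862, and rose by 0.78 ± 0.18 (adjusted p = 0.0056). The bright probe again fell with both compounds against untreated cells, by 0.40 ± 0.09 (adjusted p = 0.0032), and the dim one rose by 0.71 ± 0.18 (adjusted p = 0.0074). Both probes carry the same transcript accession, and the direction of Pttg1 is therefore uncertain.

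Of the kinetochore genes, 1 of 5 rose, 1 fell and 3 did not pass the test, with a median change of 0.25. Cenpe, a kinesin that carries chromosomes to the spindle equator, had 17.5, 14.2 and 15.1 with MG132, against 12.3, 12.9 and 11.1 in untreated cells, and rose by 0.36 ± 0.11 (adjusted p = 0.026). It had 19.8, 19.0 and 18.2 with both compounds, against 12.4, 13.7 and 11.1 with 4OHT. All MG132-treated arrays lay above all others, but the rise with MG132 alone was not called without untreated replicate 1, untreated replicate 3 or MG132 replicate 1 (highest adjusted p = 0.097) and shrank to 0.02 (adjusted p = 0.90) under median centring. Nuf2, a subunit of the NDC80 complex that binds microtubules, fell by 0.29 ± 0.08 (adjusted p = 0.015). Its partner Ndc80 did not pass the test (0.25 ± 0.10, adjusted p = 0.075), and neither did Cenpa, the histone H3 variant of centromeres (-0.04 ± 0.09, adjusted p = 0.77).

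Cenpf, a large kinetochore and matrix protein, was called with MG132 against untreated cells on its dimmer probe but not on its brighter one. The brighter probe had 7.06, 6.32 and 5.03 with MG132, against 5.42, 5.29 and 4.43 in untreated cells, and did not pass the test (0.27 ± 0.13, adjusted p = 0.12). The dimmer probe had 3.57, 3.05 and 3.07, against 1.79, 1.57 and 1.37, and rose by 1.04 ± 0.16 (adjusted p = 0.00064). On the dimmer probe the groups were far apart, whereas on the brighter one MG132 replicate 3 lay within the untreated range.

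Of the 4 spindle checkpoint genes, 3 fell. Mad2l1, which encodes the checkpoint protein MAD2, had 8.46, 8.10 and 8.09 with MG132, against 13.3, 13.8 and 14.9 in untreated cells, a change of -0.77 ± 0.08 (adjusted p = 5.1e-05). Bub1 and Bub1b, a kinase and the BUBR1 protein of the checkpoint, fell by 0.28 ± 0.10 (adjusted p = 0.048) and 0.27 ± 0.08 (adjusted p = 0.027). Ttk, which encodes the kinase MPS1, did not pass the test on its brightest probe (-0.14 ± 0.08, adjusted p = 0.20) but fell on its other 2 probes, by 0.30 ± 0.09 (adjusted p = 0.020) and 0.42 ± 0.09 (adjusted p = 0.0034).

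Of the spindle genes, Nusap1 and Tpx2 fell and Kif11 and Hmmr did not pass the test. Nusap1, which bundles microtubules around chromosomes, had 3.90, 5.70 and 4.48 with MG132, against 9.41, 10.5 and 7.81 in untreated cells, a change of -0.98 ± 0.16 (adjusted p = 0.00086). Tpx2, the activator of Aurora A on the spindle, fell by 0.48 ± 0.11 (adjusted p = 0.0050). Kif11, the motor that pushes spindle poles apart, changed by -0.18 ± 0.14 (adjusted p = 0.31). Hmmr, a microtubule-binding protein of spindle poles, changed by 0.18 ± 0.14 on its brightest probe (adjusted p = 0.32), while its other 2 probes rose, by 0.45 ± 0.15 (adjusted p = 0.040) and 0.56 ± 0.12 (adjusted p = 0.0048).

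Genes of the spindle midzone and cytokinesis fell in 4 of 5 cases. Anln, which encodes the contractile ring protein anillin, had 17.7, 16.5 and 16.3 with MG132, against 31.1, 31.6 and 29.9 in untreated cells, a change of -0.88 ± 0.12 (adjusted p = 0.00031). Kif20a, a kinesin of the midzone, fell by 0.43 ± 0.08 (adjusted p = 0.0024). Ect2, the exchange factor that switches on RhoA at the division site, fell by 0.38 ± 0.11 (adjusted p = 0.016), and Prc1, which cross-links midzone microtubules, by 0.29 ± 0.09 (adjusted p = 0.023). Kif23, a subunit of centralspindlin, changed by 0.03 ± 0.08 (adjusted p = 0.75). Top2a, the topoisomerase that untangles sister chromatids, had 26.7, 27.2 and 24.8 with MG132, against 37.4, 36.9 and 31.6 in untreated cells (-0.42 ± 0.11, adjusted p = 0.011).

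Over single probes, 32 of the 57 fell and 5 rose with MG132, where 19.8% of all probes fell and 22.8% rose. Of the 18 genes with several probes, the probes shared a sign in 16. When each of the 12 arrays was left out in turn, 16 of the 21 calls were kept every time, and Bub1, Bub1b, Cenpe, Prc1 and Ect2 were lost at least once. The Bub1 call was lost in 9 of the 12 (highest adjusted p = 0.15), that of Prc1 in 4 (0.078), those of Bub1b and Cenpe in 3 each (0.098 and 0.097) and that of Ect2 in 2 (0.067). Among slide 1 arrays alone 14 of the 36 genes were called, and the share of all genes called there is not given here. Relative to the median of all genes, the median of the 36 stood at -0.36 with the scaling used here. Median centring gives the same gap by construction, since either scaling shifts a whole array by 1 constant. The gap was -0.375 after normexp background correction and -0.17 after quantile normalization. Quantile normalization left 11 falls and 2 rises, where 21.2% of all genes fell and 20.4% rose. Median centring moved the median of all genes by -0.34. It gave 28 falls and no rise among the 36, with 35.2% of all genes fallen against 13.4% risen.

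**Figure D2:**
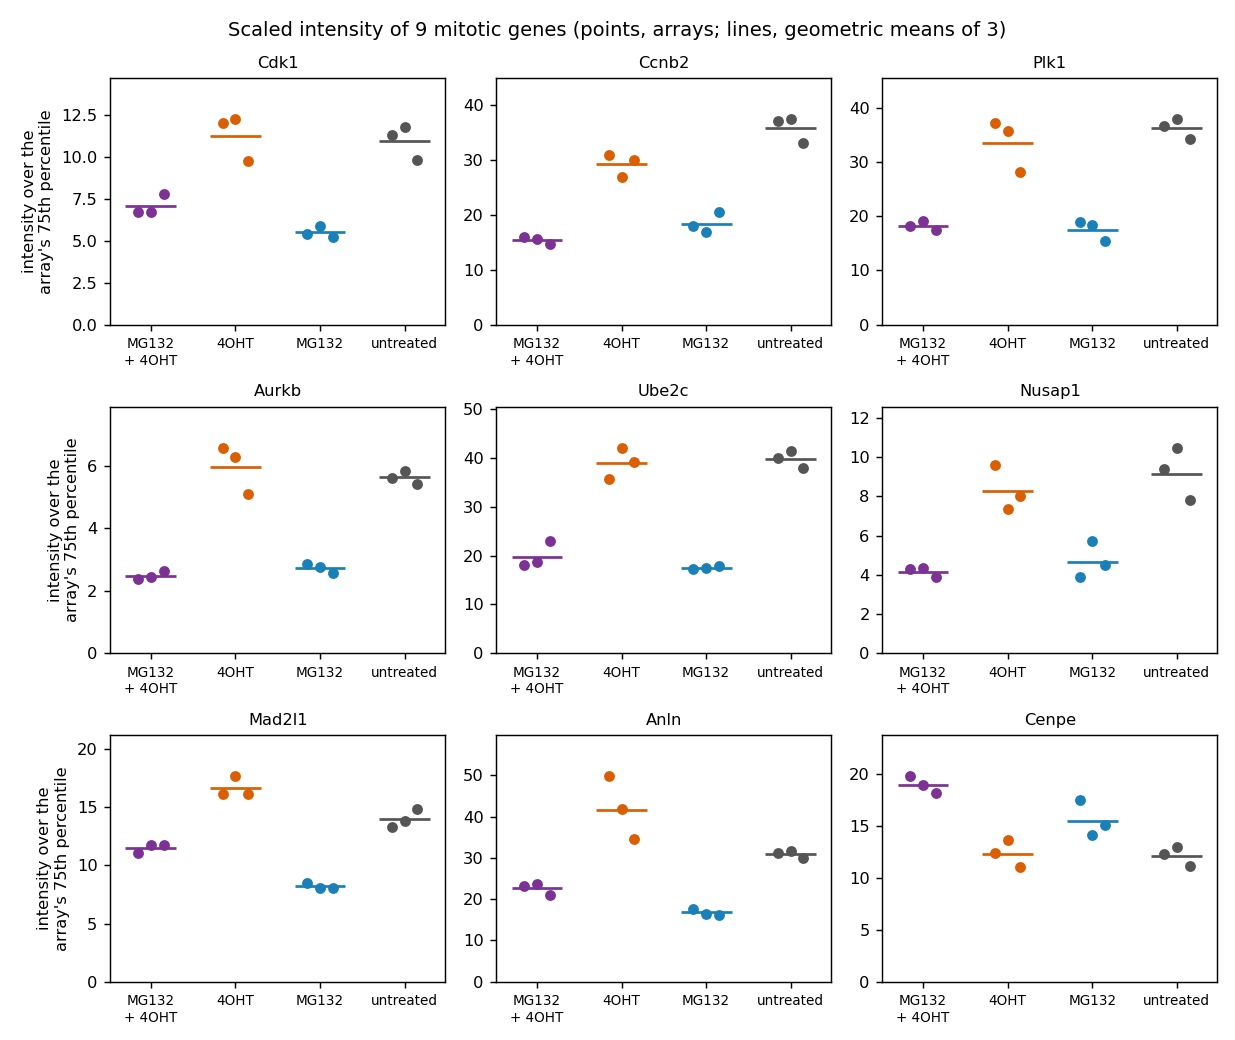
Scaled intensity (intensity over the 75th percentile of the array) of 9 genes in the 4 groups; points are arrays and lines the geometric means of 3. Ube2c, Plk1, Aurkb, Ccnb2, Cdk1 and Nusap1 are lower in both MG132 groups, Mad2l1 and Anln are also higher with 4OHT within each pair, and Cenpe is higher in both MG132 groups.

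Promoter sequences are shown for the genes with the largest falls among those in the RefSeq table, and for Cenpe, the one gene that rose, because genes that move together in the cell cycle often share CHR and CCAAT elements. RefSeq windows of GRCm38.p6, from 250 bases before the start site to 50 after it, were found for 30 of the 36 genes (32 windows). In the 4 windows below, read 5′ to 3′ along the gene, capitals mark the CHR element, searched as TTTGAA and also as its variant with the letters TTCGAA, and the CCAAT element, each on either strand.
Ube2c (chr2:164769679-164769978, plus strand): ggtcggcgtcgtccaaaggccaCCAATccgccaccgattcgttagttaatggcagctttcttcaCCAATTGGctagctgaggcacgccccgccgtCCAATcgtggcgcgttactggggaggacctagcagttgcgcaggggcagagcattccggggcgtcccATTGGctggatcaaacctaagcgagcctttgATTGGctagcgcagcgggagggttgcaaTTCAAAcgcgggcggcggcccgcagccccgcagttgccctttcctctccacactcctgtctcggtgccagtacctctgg
Plk1 (chr7:122159185-122159484, plus strand): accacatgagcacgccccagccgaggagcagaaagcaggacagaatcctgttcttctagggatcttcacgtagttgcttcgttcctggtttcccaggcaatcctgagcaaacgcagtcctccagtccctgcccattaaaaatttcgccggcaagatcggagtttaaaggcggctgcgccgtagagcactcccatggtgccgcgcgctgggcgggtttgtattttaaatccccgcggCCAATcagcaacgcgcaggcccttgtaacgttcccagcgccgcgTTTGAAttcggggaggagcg
Cdk1 (chr10:69352863-69353162, minus strand): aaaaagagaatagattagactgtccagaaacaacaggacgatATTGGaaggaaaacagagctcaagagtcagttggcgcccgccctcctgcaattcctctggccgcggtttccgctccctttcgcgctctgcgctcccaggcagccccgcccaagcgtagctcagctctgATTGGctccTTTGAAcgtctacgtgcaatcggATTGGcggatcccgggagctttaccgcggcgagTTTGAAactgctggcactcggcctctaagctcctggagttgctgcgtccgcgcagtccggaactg
Cenpe (chr3:135212313-135212612, plus strand): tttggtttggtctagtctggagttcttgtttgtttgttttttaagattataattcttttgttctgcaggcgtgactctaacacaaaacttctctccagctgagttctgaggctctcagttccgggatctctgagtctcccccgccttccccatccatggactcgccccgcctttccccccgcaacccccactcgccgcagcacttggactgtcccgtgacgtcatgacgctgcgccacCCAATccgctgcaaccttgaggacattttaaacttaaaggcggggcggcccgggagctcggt

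The Ube2c window held 6 CCAAT matches, 2 of which overlap within one capital run, and a CHR match 29 bases before the start. The Cdk1 window held 3 CCAAT matches and 2 CHR matches, the nearer of them 15 bases before the start, and the Plk1 window held a CCAAT match 14 bases before the start and a CHR match after it. The Cenpe window held 1 CCAAT match and no CHR match. Of the 32 windows, 24 (75%) held a CHR match, against 19.2% of 32851 RefSeq promoter windows, and 25 (78.1%) held CCAAT, against 37.4%. In 22 windows (68.8%) both kinds were found, against 7.52% of all windows, and in 1 of the 32 they overlapped. The matches did not sort the genes by their change: both kinds were found for 9 of the 14 genes that fell with MG132 and for 11 of the 15 that did not pass the test. Nusap1, Mad2l1, Nuf2 and Pttg1 fell without either match in their windows, and Cdc20, Cdca8 and Cenpa held both and were not called. No match says only that these letters are not in the window.

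The same comparison in cells that also had 4OHT, MG132 + 4OHT against 4OHT alone, used separate arrays. Here 19 of the 36 genes fell, 3 rose and 14 did not pass the test, where 50.2% of all genes were called, 29.4% as risen and 20.9% as fallen. The median of the 36 was -0.29, against 0.13 over all genes. Over the 5540 genes that were about as bright it was -0.115, and 57.2% of those were called. Under median centring 24 of the 36 fell and 1 rose (18.8% of all genes rose and 29.8% fell). After quantile normalization 14 fell and 3 rose (26.3% of all genes rose and 21.9% fell). Of the genes that fell, 17 fell in both settings, which is 85% of the 20 that fell with MG132 alone and 89.5% of the 19 here. By this threshold and on their brightest probes, Incenp, Nuf2 and Pttg1 fell only without 4OHT and Ttk and Espl1 only with it. None of these differences passed its own test in the model without replicate number. In a limma fit with replicate number as a block, that of Incenp did (0.41 ± 0.10, adjusted p = 0.045). Other probes of Ttk fell without 4OHT as well, and the dim probe of Pttg1 rose there. Across the 36 genes the changes correlated with r = 0.89 and rho = 0.84 (all 26836 genes, r = 0.74), as a description over genes that share arrays.

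The largest falls in cells with 4OHT were those of Aurkb, Nusap1, Ube2c, Ccnb2 and Anln. Aurkb had 2.37, 2.44 and 2.64 with both compounds, against 6.58, 6.30 and 5.12 with 4OHT, a change of -1.27 ± 0.11 (adjusted p = 1e-05). Ube2c fell by 0.97 ± 0.11 (adjusted p = 5.6e-05). Nusap1 and Ccnb2 fell by 0.99 ± 0.16 (adjusted p = 0.00069) and 0.91 ± 0.10 (adjusted p = 5.2e-05). Anln had 23.3, 23.7 and 21.0 with both compounds, against 49.7, 41.9 and 34.7 with 4OHT (-0.88 ± 0.12, adjusted p = 0.00025). Plk1 fell by 0.87 ± 0.12 (adjusted p = 0.00027), Cdk1 by 0.67 ± 0.12 (adjusted p = 0.0011) and Top2a by 0.42 ± 0.11 (adjusted p = 0.011), while Cdc20 did not pass the test (-0.08 ± 0.24, adjusted p = 0.80). All 4 checkpoint genes fell.

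The 3 genes that rose were Cenpe (0.62 ± 0.11, adjusted p = 0.0013), Cenpf (0.51 ± 0.13, adjusted p = 0.0086) and Aurka. Cenpf had 5.85, 5.67 and 5.70 with both compounds, against 4.35, 3.87 and 3.87 with 4OHT, and its dimmer probe rose by 1.41 ± 0.16 (adjusted p = 7.4e-05). Aurka had 44.1, 45.2 and 51.4 with both compounds, against 31.8, 33.8 and 38.3 with 4OHT, and rose by 0.44 ± 0.11 (adjusted p = 0.0065). All arrays here with both compounds lay on slide 2 and all with 4OHT on slide 1. With slide as a fixed block, which rests on MG132 replicate 3, 7 of the 36 were called, namely Ccnb2, Aurkb, Ube2c, Anln, Bub1b, Mad2l1 and Cenpf. In every fit with slide as the only block, slide cannot be told apart from the shift of replicate 3 described above. The share of all genes called in that fit is not given here, so a loss among the 36 cannot be set against it. The falls of Plk1 (adjusted p = 0.072), Nusap1 (0.068), Cdk1 (0.11), Top2a (0.34), Bub1 (0.32) and Ttk (0.24) and the rises of Cenpe (0.052) and Aurka (0.32) were among the calls lost. Median centring also ended the calls of Cenpf (0.27, adjusted p = 0.16) and Aurka (0.20, adjusted p = 0.23). Leaving out single arrays ended the calls of Bub1 (highest adjusted p = 0.060) and Prc1 (highest adjusted p = 0.11).

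**Figure D3:**
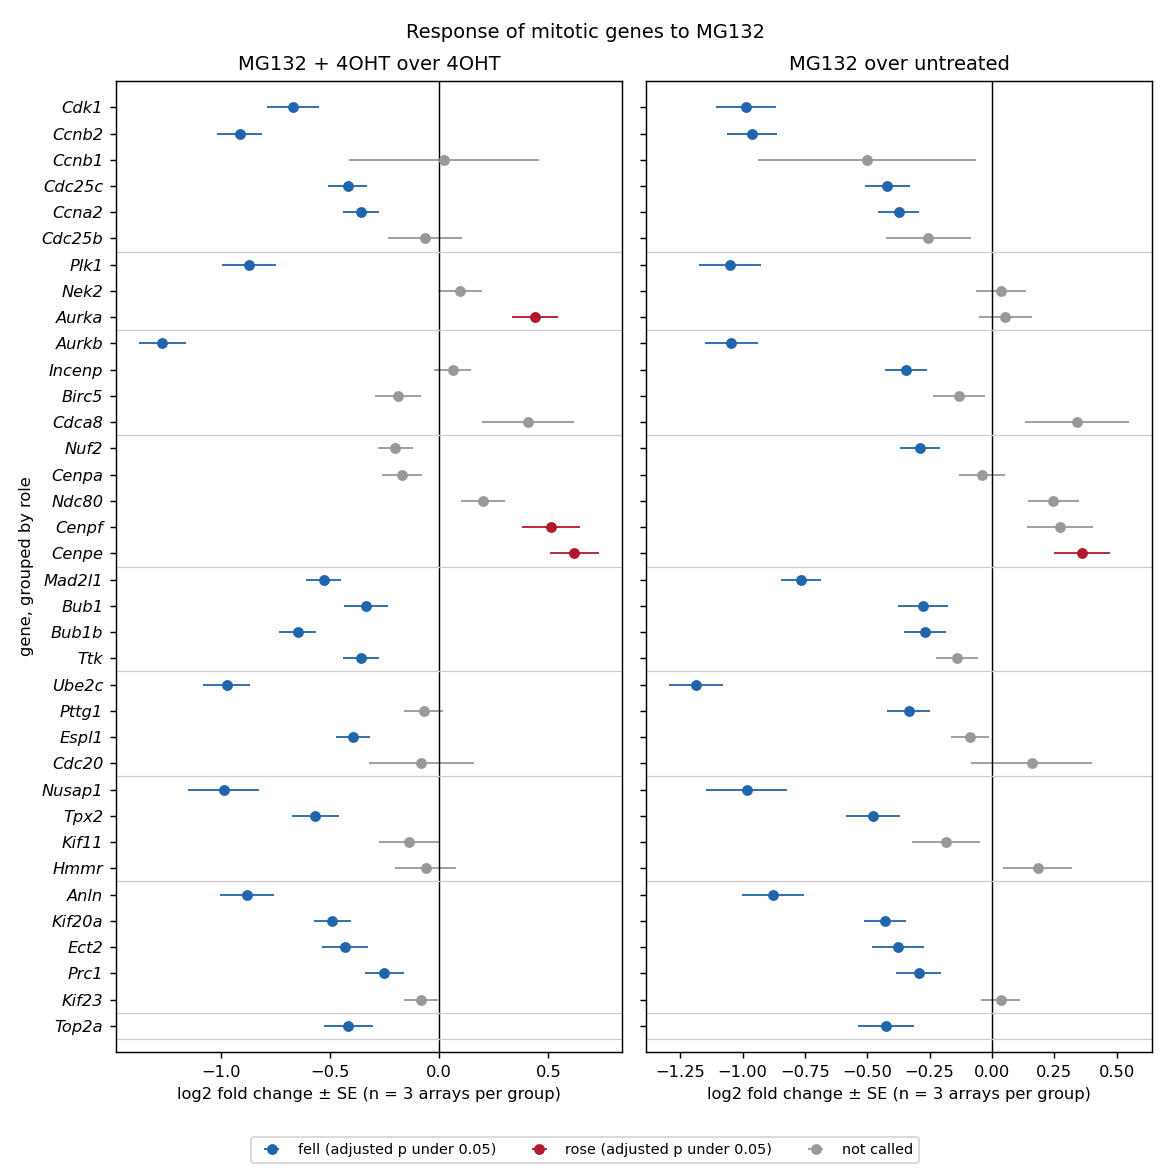
Log2 fold change ± SE of the 36 genes (3 arrays per group) for MG132 + 4OHT over 4OHT, left, and MG132 over untreated, right; blue, fell; red, rose; grey, not called. Ube2c, Plk1, Aurkb, Ccnb2, Nusap1, Anln and Cdk1 lie furthest left in both panels, and Cenpe lies furthest right.

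Few of the mitotic genes were called with 4OHT alone. The 4OHT arrays were less alike than the others: over all genes their residual SD was 0.39 to 0.45, against 0.19 to 0.29 elsewhere. Their correlations with each other were 0.976 to 0.982, against 0.987 to 0.996 within the other groups. On 4OHT replicates 2 and 3, 49.4% and 53.5% of probes were well above background. The model takes 1 spread per gene over all groups, so its SEs do not show this. They may be too small, and calls too many, wherever 4OHT arrays are compared, also with both compounds against 4OHT. Of the calls with 4OHT against untreated cells, only that of Cdc25b was kept in a fit of only the arrays compared, which has fewer arrays. A gene not called may still have changed. Against untreated cells 2 of 36 rose, 4 fell and 30 did not pass the test, where 28.6% of all genes were called, 13.9% as risen and 14.7% as fallen, and the median of the 36 was -0.06 (0.03 over all genes). Of the 36, 1 rose and 7 fell after normexp background correction (26.3% and 12.1% of all genes), 0 rose and 6 fell after quantile normalization (11.1% and 18.1%), and 0 rose and 9 fell under median centring (8.91% and 19.9%). The 6 of 36 called are a smaller share than that background. Cdc25b had 0.337, 0.282 and 0.317 with 4OHT, against 0.527, 0.527 and 0.480 in untreated cells, and fell by 0.72 ± 0.17 (adjusted p = 0.0099). Pttg1 fell by 0.33 ± 0.09 on its bright probe (adjusted p = 0.018), Aurka by 0.32 ± 0.11 (adjusted p = 0.046) and Cdc25c by 0.27 ± 0.09 (adjusted p = 0.047). Anln had 49.7, 41.9 and 34.7 with 4OHT, against 31.1, 31.6 and 29.9 in untreated cells, and rose by 0.43 ± 0.12 (adjusted p = 0.025). Mad2l1 had 16.2, 17.7 and 16.1, against 13.3, 13.8 and 14.9, and rose by 0.25 ± 0.08 (adjusted p = 0.041).

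Cdk1 (0.04 ± 0.12, adjusted p = 0.83), Plk1 (-0.12 ± 0.12, adjusted p = 0.53), Cdc20 (0.36 ± 0.24, adjusted p = 0.31), Top2a (0.26 ± 0.11, adjusted p = 0.12) and Ccnb1 (-0.56 ± 0.44, adjusted p = 0.38) did not pass the test with 4OHT. Ccnb1 without 4OHT replicate 3 changed by 0.10 ± 0.14 (adjusted p = 0.62). In a limma fit with replicate number as a block, Cdc20 rose (0.36 ± 0.08, adjusted p = 0.0082). Only the call of Cdc25b was kept with each of the 12 arrays left out, and it was lost when the probes of the gene were averaged (-0.35, adjusted p = 0.16), its dimmer probe having changed by 0.02 ± 0.33 (adjusted p = 0.97), and without replicate 3 of all groups (-0.77, adjusted p = 0.056). Averaged over its probes, Pttg1 changed by -0.04 (adjusted p = 0.85). The number of calls was 1 without untreated replicate 1 or 2, 2 without 4OHT replicate 2, 3 without MG132 replicate 1 or 2 or replicate 1 or 2 with both compounds, and 10 without 4OHT replicate 3. The rise of Anln was not called after quantile normalization (adjusted p = 0.11) or median centring (adjusted p = 0.13), nor was that of Mad2l1 (adjusted p = 0.13 and 0.59).

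In cells that had MG132, adding 4OHT moved a similar number. Both compounds against MG132 alone gave the following: 3 of 36 rose, 3 fell and 30 did not pass the test, where 26.5% of all genes were called, 13.9% as risen and 12.6% as fallen. Of the 36, 3 rose and 6 fell after normexp background correction (14.3% and 11% of all genes). After quantile normalization 1 rose and 7 fell (11.9% and 15.5%), and under median centring 1 rose and 4 fell (9.65% and 13.3%). Mad2l1 had 11.1, 11.7 and 11.8 with both compounds, against 8.46, 8.10 and 8.09 with MG132, and rose by 0.49 ± 0.08 (adjusted p = 0.0021). Anln rose by 0.43 ± 0.12 (adjusted p = 0.028) and Incenp by 0.27 ± 0.09 (adjusted p = 0.044). Mad2l1 and Anln thus rose with 4OHT both without and with MG132, on separate arrays, and Cdc25b fell in both settings (here -0.53 ± 0.17, adjusted p = 0.044). Here the calls of Anln, Incenp and Cdc25b were lost with 5, 8 and 10 of the 12 single arrays left out (highest adjusted p 0.093, 0.16 and 0.15), and that of Anln also after quantile normalization (adjusted p = 0.16) and median centring (adjusted p = 0.055).

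The checkpoint genes Bub1b and Ttk, unlike Mad2l1, fell in this setting. Bub1b had 4.83, 4.69 and 5.02 with both compounds, against 7.36, 7.35 and 6.52 with MG132, and fell by 0.54 ± 0.08 (adjusted p = 0.0015). Ttk had 2.40, 2.26 and 2.34, against 3.33, 2.95 and 2.94, and fell by 0.40 ± 0.08 (adjusted p = 0.0066). In both genes all arrays with both compounds lay below all arrays with MG132. Cdk1 had an adjusted p of 0.050 and was not called (0.36 ± 0.12). Plk1 (0.06 ± 0.12, adjusted p = 0.75), Ccnb1 (-0.04 ± 0.44, adjusted p = 0.95), Cdc20 (0.12 ± 0.24, adjusted p = 0.74) and Top2a (0.26 ± 0.11, adjusted p = 0.11) did not pass the test.

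Only MG132 replicate 3 shared a slide with the arrays of both compounds. On slide 2 alone, 3 arrays against 1, none of the 36 was called, with changes of 0.51 for Mad2l1 (adjusted p = 0.071), -0.43 for Bub1b (adjusted p = 0.094) and -0.34 for Ttk (adjusted p = 0.14). With slide as a fixed block 2 of the 36 genes were called, Mad2l1 (adjusted p = 0.025) and Bub1b (adjusted p = 0.039). For that fit too, the share of all genes called is not given. The calls of Mad2l1, Bub1b and Ttk were kept with each array left out, and the number of calls was 3 without MG132 replicate 1, MG132 replicate 2 or replicate 2 with both compounds, and 10 without 4OHT replicate 1.

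The interaction sets the 4OHT change under MG132 against that in its absence. In the limma model without replicate number it was called for none of the 36 genes, and 4 of the 36 had an unadjusted p under 0.05. Of all genes 6.55% were called (2.94% higher and 3.61% lower, or 3.37% and 2.38% under median centring). The largest differences among genes other than Ccnb1 were those of Incenp (0.41 ± 0.12, adjusted p = 0.079), Aurka (0.39 ± 0.15, adjusted p = 0.18) and Bub1b (-0.38 ± 0.12, adjusted p = 0.094). Plk1 (0.18 ± 0.18), Cdc20 (-0.24 ± 0.34), Top2a (0.01 ± 0.16), Cdk1 (0.32 ± 0.17) and Ccnb1 (0.52 ± 0.62) did not pass the test either, with adjusted p-values of 0.62, 0.74, 0.99, 0.33 and 0.68 in that order. Across the 36 genes the 4OHT changes with MG132 and without it had the same sign in 29 and correlated with r = 0.64 and rho = 0.63, as a description; over all genes r was 0.63.

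**Figure D4:**
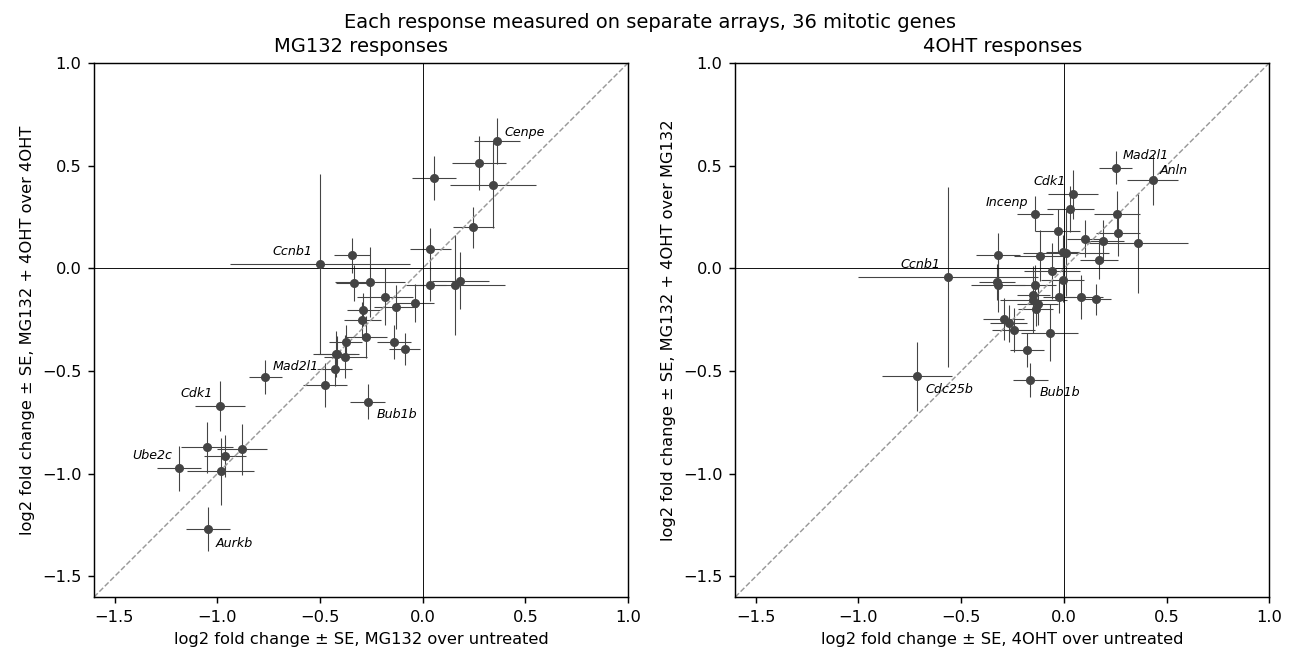
Log2 fold change ± SE of the 36 genes in 2 settings that share no arrays: the MG132 response with 4OHT against that without (left), and the 4OHT response with MG132 against that without (right); the dashed line marks equal changes. Most genes lie near the line in the left panel (r = 0.89), and the right panel has smaller changes (r = 0.64) and the wide bars of Ccnb1.

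Both compounds together gave 20 falls, 1 rise and 15 genes that did not pass the test against untreated cells, where 55.6% of all genes were called, 33.2% as risen and 22.5% as fallen. The median of the 36 was -0.29, against 0.19 over all genes and -0.06 over the 5540 genes that were about as bright, of which 61.5% were called. Ccnb2 fell by 1.21 ± 0.10 (adjusted p = 6.7e-06), Aurkb by 1.19 ± 0.11 (adjusted p = 1.1e-05), Nusap1 by 1.14 ± 0.16 (adjusted p = 0.00023), Ube2c by 1.01 ± 0.11 (adjusted p = 3.5e-05) and Plk1 by 0.99 ± 0.12 (adjusted p = 9.4e-05). Bub1b fell by 0.81 ± 0.08 (adjusted p = 2.8e-05) and Cdk1 by 0.63 ± 0.12 (adjusted p = 0.0014). Ttk, Birc5, Espl1 and Cdc25b, not called with MG132 alone on their brightest probes, fell as well. Cenpe rose by 0.65 ± 0.11 (adjusted p = 0.00077), which median centring reduced to 0.25 (adjusted p = 0.15). Cdc20 (0.28 ± 0.24, adjusted p = 0.35), Ccnb1 (-0.54 ± 0.44, adjusted p = 0.31) and Top2a (-0.16 ± 0.11, adjusted p = 0.25) did not pass the test. Slide separates these groups, and with slide as a fixed block 11 of the 36 were called, without a share of all genes to set beside them. Not among them were Cdk1 (adjusted p = 0.12), Ttk (0.053), Birc5 (0.14), Espl1 (0.27) and Cdc25b (0.12). The Espl1 call was also lost with 4 of the 12 single arrays left out (highest adjusted p = 0.083). Under median centring 30 of the 36 fell and none rose (16.6% of all genes rose and 37.2% fell), and after quantile normalization 17 fell and 1 rose (24.9% and 26.6%).

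Over the 5 pairwise comparisons, 9 of the 36 genes were called in none on their brightest probe, in the model without replicate number: Ccnb1, Cdc20, Cenpa, Kif11, Kif23, Cdca8, Nek2, Ndc80 and Hmmr. The groups did not overlap for 17 of the 36 genes with 4OHT against untreated cells (40.9% of all genes), for 25 with both compounds against untreated cells (72.0%), for 21 with both compounds against MG132 (50.2%) and for 24 with both compounds against 4OHT (57.5%). Of the 57 probes, 7 fell and 3 rose with 4OHT alone (14.7% and 14.3% of all probes), and 32 fell and 3 rose with both compounds against untreated cells (23.5% and 31.4%). Against MG132, both compounds gave 7 falls and 4 rises (12.6% and 13.5%), and against 4OHT 30 falls and 5 rises (22.2% and 27.7%). For Ccnb1, Cdc20 and Cdca8 some arrays stood apart, as described above, and the SE of their changes was 0.21 to 0.44, beside 0.08 for Kif23. All probes of Ccnb1, Cenpf, Pttg1 and Cdc20 were plotted by array.

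**Figure D5:**
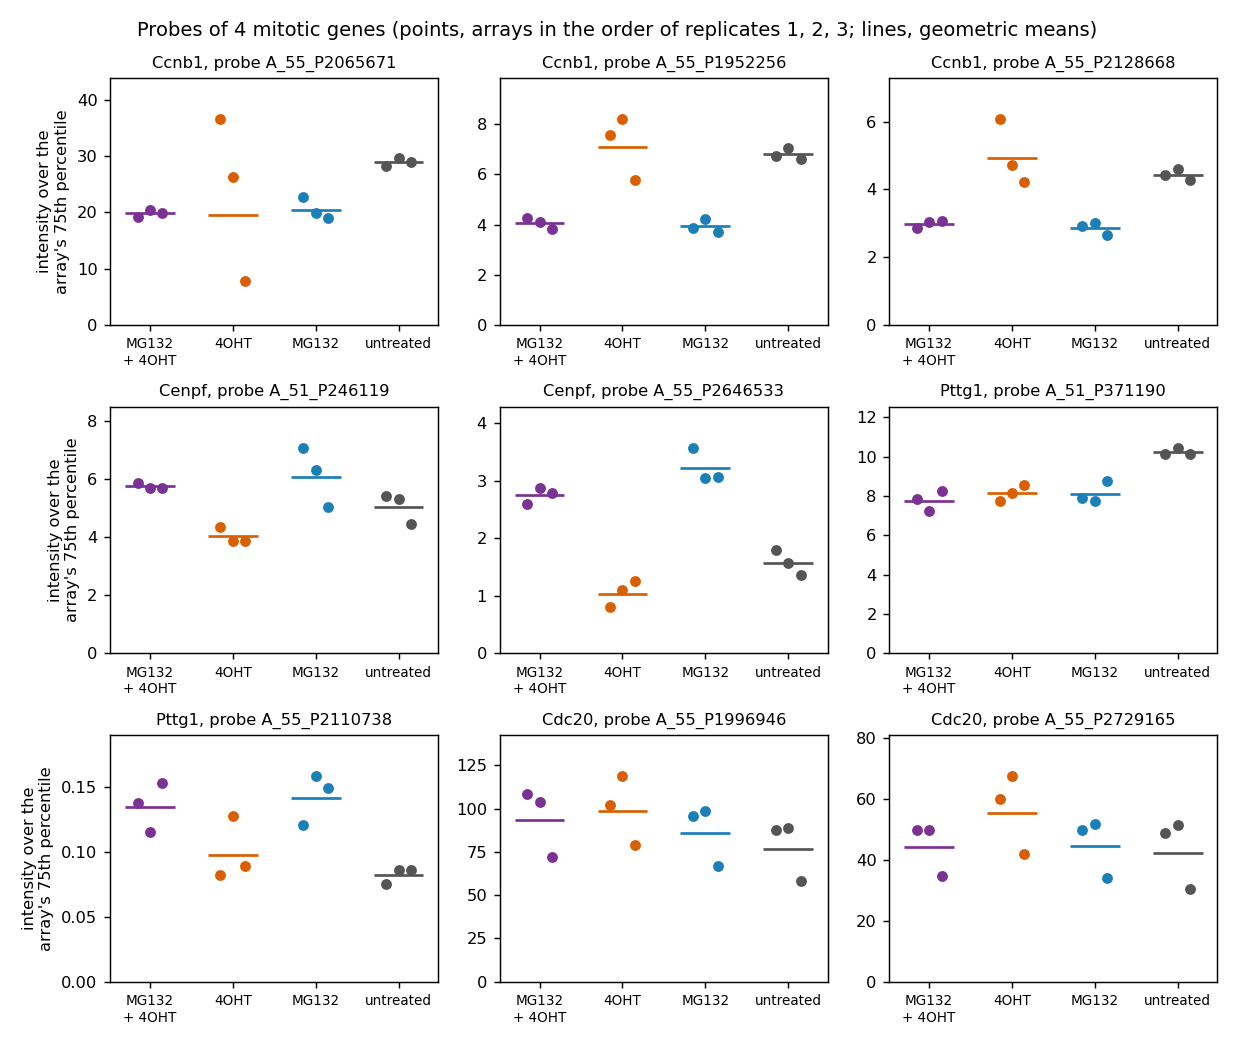
Scaled intensity of every probe of Ccnb1, Cenpf, Pttg1 and Cdc20 in the 4 groups; points are arrays, drawn from replicate 1 on the left of a group to replicate 3 on the right, and lines are geometric means. Only the brightest Ccnb1 probe has the low 4OHT array, the dimmer Cenpf probe separates the groups more widely, the Pttg1 probes move in opposite directions with MG132, and both Cdc20 probes are lowest on replicate 3 in each group.

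Related gene sets, chosen for this description, were read the same way, and no set was tested against all genes. Of all genes, 19.0% fell and 24.1% rose with MG132, and 20.9% fell and 29.4% rose with both compounds against 4OHT. With 4OHT alone 14.7% fell and 13.9% rose, and with both compounds against MG132 12.6% fell and 13.9% rose. The counts of the sets below, markers included, are to be read beside these shares. Of 63 other mitotic genes, 25 fell and 14 rose with MG132 (median -0.20), and 21 fell and 15 rose with both compounds against 4OHT (median -0.08). With MG132 the largest falls were those of Oip5 (-1.02 ± 0.09, adjusted p = 1.4e-05), which loads centromeric histone, the kinetochore subunit Spc24 (-0.91 ± 0.10, adjusted p = 5.8e-05) and Ska2 (-0.87 ± 0.28, adjusted p = 0.027). The largest rises were those of Psrc1 (1.44 ± 0.07, adjusted p = 8.9e-07), the kinesin Kif18b (1.44 ± 0.09, adjusted p = 2.5e-06) and Ckap2 (1.19 ± 0.16, adjusted p = 2e-04). With 4OHT alone 14 of the 63 fell and 1 rose, and with both compounds against MG132 10 fell and 3 rose.

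Of 17 subunits and regulators of the anaphase-promoting complex, 8 fell and 4 rose with MG132, led by the subunit Anapc10 (-0.84 ± 0.12, adjusted p = 0.00037) and, upward, Anapc16 (0.66 ± 0.11, adjusted p = 8e-04). Fzr1, which encodes CDH1, the activator of the complex in late mitosis and G1, fell by 0.77 ± 0.10 (adjusted p = 0.00021). In cells with 4OHT 7 of the 17 fell and 3 rose with MG132. With 4OHT alone 4 fell and 1 rose, and with both compounds against MG132 2 fell and 1 rose. Of 19 condensin and cohesin genes 4 fell and 4 rose with MG132, among them the cohesin subunit Rad21 (-0.96 ± 0.13, adjusted p = 0.00027) and the cohesin subunit Stag1 (0.67 ± 0.08, adjusted p = 0.00012). Both compounds against 4OHT gave 6 falls and 5 rises, with 4OHT alone 2 fell and 6 rose, and with both compounds against MG132 1 fell and 4 rose.

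Of 45 genes of DNA replication, 22 fell with MG132, 3 rose and 20 did not pass the test (median -0.31). Gins1, a subunit of the replicative helicase, fell by 1.03 ± 0.09 (adjusted p = 1.2e-05) and Gmnn, which encodes the licensing inhibitor geminin, by 0.95 ± 0.12 (adjusted p = 0.00015). Both compounds against 4OHT gave 16 falls and 9 rises, with 4OHT alone 9 fell and 1 rose, and with both compounds against MG132 6 fell and 7 rose.

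Among 28 transcriptional regulators and inhibitors of the cycle, 6 fell and 8 rose with MG132, 6 fell and 13 rose with both compounds against 4OHT, 6 fell and 5 rose with 4OHT alone, and 2 fell and 6 rose with both compounds against MG132. Rb1, the retinoblastoma gene, rose by 2.51 ± 0.21 (adjusted p = 1.1e-05) with MG132. Cdkn1a, which encodes the CDK inhibitor p21 and is a target of p53, rose by 0.98 ± 0.14 with MG132 (adjusted p = 0.00026) and by 3.06 ± 0.14 with both compounds against 4OHT (adjusted p = 2.8e-07), fell by 1.15 ± 0.14 with 4OHT alone (adjusted p = 0.00015), and its 4OHT response differed with MG132 (2.07 ± 0.19, adjusted p = 0.00042). Mybl2, which encodes B-Myb, fell by 0.33 ± 0.11 with MG132 (adjusted p = 0.027). Foxm1 (-0.27 ± 0.12, adjusted p = 0.092) and Trp53, which encodes p53 (-0.30 ± 0.14, adjusted p = 0.11), did not pass the test there. No relation between these regulators and the 36 genes was tested.

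The markers of cell identity moved in the same comparisons. Of the 15 embryonic stem cell markers 14 fell with MG132, 12 with both compounds against 4OHT and 5 with 4OHT alone, with 0, 0 and 2 rising, and with both compounds against MG132 6 fell and 1 rose. Of the 11 measured fibroblast or feeder markers 2 fell and 4 rose with MG132, 4 fell and 4 rose with both compounds against 4OHT, 3 fell and 4 rose with 4OHT alone, and 0 fell and 4 rose with both compounds against MG132.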

How the data were processed

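Processed spot intensity per array was deposited by the authors and, per the file headers, comes from Agilent Feature Extraction 11.0.1.1 on 1-colour (Cy3) arrays, background-subtracted and detrended within each array, with no scaling between arrays. The deposited series-wide table holds the same intensity values (largest difference 0). No read depth exists for arrays, and 3 arrays per group limit the precision. The design text calls the replicates biological.

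From these intensities, control spots (3671 of 62976) and spots marked as outliers were dropped, spots of a probe were averaged, and log2 values minus the 75th percentile of the array were computed from the deposited signals. A probe was kept where some group had it well above background on each of its arrays (34327 of 56605), and each gene was represented by its brightest probe; 58.3% of probes had a RefSeq symbol through their accession. One limma 3.58.1 model (R 4.3.3) with 4 group means over all 12 arrays gave log2 changes and Benjamini-Hochberg adjusted p-values over 26836 genes, with a threshold of 0.05. The fit was tested on simulated data. Figures were drawn with matplotlib 3.10.9.

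The 36 genes and all gene lists were chosen with earlier results of these data known. By rule, all 36 could be named; fuller statistics went to the 5 largest rises and falls of a comparison, to Cdk1, Ccnb1, Plk1, Cdc20 and Top2a, and to genes with opposite probe calls. From other lists, up to 3 called genes per direction were eligible, plus Foxm1, Mybl2, Cdkn1a and Trp53. Promoters were those of the 3 largest falls and the largest rise with MG132 among genes in the RefSeq table. Normexp was run on median spot and background signals, since mean signals were not used here. Alternatives covered background correction, scaling, filters, probe choice, slide, replicate number and leaving out arrays.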

Additional observations from a re-analysis of the deposited data

How the results depend on the processing

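Of the 21 genes called with MG132 against untreated cells, 11 were called under all 26 settings other than the 2-fold minimum: Cdk1, Ccnb2, Plk1, Aurkb, Ube2c, Kif20a, Tpx2, Nusap1, Mad2l1, Anln and Cdc25c. Under all 25 settings run there, again without the 2-fold minimum, the same held for 4 genes with both compounds against 4OHT (Ccnb2, Aurkb, Ube2c and Anln), for 6 with both compounds against untreated cells, and for none in either 4OHT comparison. The number of the 36 called with MG132 was 13 after quantile normalization and 3 with a 2-fold minimum, and 17 to 22 with single arrays left out. With both compounds against untreated cells it was 11 with slide as a fixed block, 6 with replicate block and slide block and 4 with the 2-fold minimum (17 to 22 with arrays left out). Against 4OHT, both compounds gave 7, 6 and 1 under the same 3 settings (20 to 23 with arrays left out). Against MG132, both compounds gave 2, 1 and 0 under them, 3 without a filter on dim probes, 0 on slide 2 alone, a setting chosen after seeing the data, and 3 to 10 with arrays left out. With 4OHT against untreated cells it was 3 without the filter, 1 in a fit of only the arrays compared, 2 on slide 1 alone, 0 with the 2-fold minimum and 1 to 10 with arrays left out. Quantile normalization apart, the shares of all genes called under these settings are not given here. Whether calls were lost among the 36 alone or among all genes cannot be read from these counts.

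Pttg1 turned to 0.22 (adjusted p = 0.16) with MG132 and 0.15 (adjusted p = 0.30) with both compounds against untreated cells when its probes, which move in opposite directions, were averaged. Ccnb1 with both compounds against 4OHT ranged from -0.64 (adjusted p = 0.0043) without 4OHT replicate 3 to 0.47 without 4OHT replicate 1, and was -0.65 (adjusted p = 0.025) without replicate 3 of all groups, also chosen after seeing the data. Same-numbered arrays deviated together most for replicate 3 (correlations of 0.12 to 0.41, median 0.31). For replicate 1 they were -0.06 to 0.16 (median 0.07) and for replicate 2 0.07 to 0.15 (median 0.12). Differently numbered arrays of different groups gave -0.29 to 0.19 (median -0.14, 36 pairs). Among these, the pairs of replicate 1 with replicate 2 gave 0.01 to 0.19, about as high as same-numbered pairs of either. Replicate 3 thus stood apart from the others, while replicates 1 and 2 showed no pairing by number. The series names no block and the main model had none, and a fit with replicate number as a block is given beside it. With the replicate block 22 of the 36 genes were called with MG132, 23 with both compounds against untreated cells, 23 against 4OHT, 7 against MG132 and 7 with 4OHT against untreated cells. The shares of all genes called in that fit, for these comparisons or the interaction, are not given here. Whether the block raised calls among the 36 alone or among all genes cannot be read from these counts. Cdc20 was then called with 4OHT (0.36, adjusted p = 0.0082) and with both compounds against untreated cells (0.28, adjusted p = 0.014), and Cdca8 with MG132 (0.34, adjusted p = 0.0051) and with both compounds against untreated cells (0.42, adjusted p = 0.0014) and against 4OHT (0.41, adjusted p = 0.0019). The interaction was called for 2, Aurka (0.39, adjusted p = 0.049) and Incenp (0.41, adjusted p = 0.045). The cause of the other shifts was not tested.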
